A study of Mus musculus with 20 samples.

Results

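The genes described here are 10 regulators of mRNA decay: the BTG and TOB genes *Btg1*, *Btg2*, *Tob1* and *Tob2*, the zinc finger genes *Zfp36*, *Zfp36l1* and *Zfp36l2*, the poly(A)-related gene *Noct*, and the endoribonuclease genes *Zc3h12a* and *Zc3h12c*. They were taken by symbol from 3 tables of log2 CPM (read counts scaled to library size, on a log2 scale), and each was represented in each table by the transcript with the highest mean over all samples. All 10 were measured in each table, among 13929 genes of endothelial cells (ECs), 13563 of fibroblasts (FBs) and 13038 of cardiomyocytes (CMs). The genes were chosen by name, and within a gene the row was selected on its mean level alone. The list itself was drawn up with earlier results of these data known.

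Bulk RNA-seq covered 20 samples of cells isolated from mouse hearts 2 weeks after transverse aortic constriction (TAC), an operation that narrows the aorta and imposes pressure overload. ECs had 4 samples per genotype, WT and *Gadlor*-KO, and FBs and CMs had 3 each. *Gadlor*-KO mice carry a homozygous, systemic deletion on chromosome 16 that removes the long noncoding RNAs *Gadlor1* and *Gadlor2*, and according to the methods the line goes back to a single clone of edited G4 embryonic stem cells injected into C57BL/6 blastocysts. TAC was performed at 8 to 10 weeks of age. Every sample of both genotypes came after TAC, so the comparisons are between operated mice and say nothing of sham-operated hearts. ECs had been enriched with CD146 beads, FBs with feeder removal beads, and CMs after Langendorff perfusion. The labels do not say whether samples of a genotype came from separate animals, although the methods state in general that experiments had biological replicates. *Gadlor1* and *Gadlor2* were not analysed here, so the genotype was not checked on the deleted genes.

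The effective library size was 40.1 to 55.4 M reads in ECs, 15.0 to 59.8 M in FBs and 10.6 to 20.2 M in CMs. Endothelial markers had a similar mean level in all 8 EC samples (8.47 to 8.67 log2 CPM), and fibroblast markers led in all 6 FB samples (8.46 to 9.82). The third cell type departed from its label in *Gadlor*-KO: all 10 cardiomyocyte markers, *Myh6* and *Actc1* among them, were lower. Their mean levels were 5.69 to 8.93 log2 CPM against 10.88 to 11.49 in WT. Endothelial, fibroblast and macrophage markers were higher in 10 of 10 genes each. These samples are therefore called the samples labelled *Gadlor*-KO CMs. The FB library WT-260 also stood apart, with 73.6% of its CPM from mitochondrially encoded genes, against 3.81% and 5.69% in the other WT FBs and 46.3% to 60.9% in *Gadlor*-KO FBs. Values in FBs and CMs are followed by their range with 1 library left out where single libraries moved them most.

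The steady state of an mRNA depends on how fast its poly(A) tail is shortened and the message destroyed. ZFP36 proteins (tristetraprolin and its relatives) bind AU-rich elements in the 3′ untranslated region and recruit the CCR4-NOT deadenylase, which shortens the tail. BTG and TOB proteins bind the CAF1 subunit of the same complex, and they restrain proliferation in many cell types. *Zc3h12a* (regnase-1) cleaves stem-loops in cytokine mRNAs, and *Zc3h12c* encodes a relative of it. *Noct* (nocturnin) belongs to the deadenylase-like nucleases, oscillates with the circadian clock and acts on NADP(H). Many of these genes are induced within minutes by growth factors, stress or inflammatory signals, and in endothelium ZFP36 proteins are known to limit inflammatory and angiogenic messages.

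Several of the regulators carry in their own 3′ untranslated region the AU-rich heptamer TATTTAT, the DNA spelling of the sequence that ZFP36 proteins bind. The heptamer was searched on the sense strand of the GENCODE vM21 transcript of each gene. It was present in 7 of the 10 genes, against 28.8% of 13217 genes of the tables with an annotated 3′ untranslated region. The longer element TTATTTATT, which contains the heptamer, was present in 4 of the 10 and in 7.42% of all genes. *Zfp36* held 3 heptamers in 774 bases, and 20.1% of genes with a region of similar length (within 1.2 times) held any. The regulators have longer regions than most genes (median 1828.5 against 1066 bases). The share at similar length was 28.2% for *Noct*, 38.5% for *Zfp36l1*, 38.3% for *Zfp36l2*, 41.6% for *Btg2*, 45.6% for *Tob2* and 56.3% for *Zc3h12c*. *Zfp36l1* and *Zfp36l2* held 3 each and *Noct* held 2, while *Btg1*, *Tob1* and *Zc3h12a* held 0. The share at similar length was 59.5% for *Btg1*, 19.9% for *Tob1* and 21.3% for *Zc3h12a*. *Btg1* had the longest region of the list, with 4166 bases. The windows below show the first longer element of each gene that holds one, and otherwise its first heptamer. The heptamer is in capitals, within 30 bases of mRNA written 5′ to 3′. It is shown because it is the kind of site that the ZFP36 proteins of this list read.
Zfp36: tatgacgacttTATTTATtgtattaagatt
Zfp36l1: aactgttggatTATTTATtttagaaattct
Zfp36l2: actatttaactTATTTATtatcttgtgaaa
Noct: tcatttcaagtTATTTATttgtgggatttt
Btg2: aaatgaagagcTATTTATacatgttttttt
Tob2: tatcacctgctTATTTATgtacgaggttgg
Zc3h12c: gctataatcatTATTTATaggaacaaagat
The windows of *Zfp36*, *Zfp36l1*, *Zfp36l2* and *Noct* were chosen for the longer element, with a T on either side of the capitals. A match is a description of the letters and does not show that a protein binds there.

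In WT cells the regulators had their highest mean log2 CPM in ECs. The WT mean in ECs was above that in FBs and CMs for all 10 genes, and for 7 of them every WT EC sample was above every WT FB sample. The exceptions were the 3 ZFP36 genes, whose WT means in ECs and FBs differed by 0.35 to 0.44 on the log2 scale and whose samples overlapped. The tables had been normalized separately, so these levels were set side by side and not tested. The median gene also differed, at 3.39 to 3.41 log2 CPM in WT ECs, 3.04 to 3.13 in WT FBs and 2.31 to 2.85 in WT CMs. By rank among the genes of each table, *Noct* stood higher in WT CMs (percentile 84.4) than in WT ECs (83.1). *Zfp36l2* ranked higher in WT FBs (97.9) than in WT ECs (97.4), and all other regulators ranked highest in ECs. Each cell type was isolated in its own way, which cannot be told apart from cell type. Immediate early genes, such as *Egr1* and *Junb*, had mean levels of 8.91 to 9.17 log2 CPM in WT ECs. In WT FBs these were 7.75 to 9.07 and in WT CMs 2.94 to 3.04. Pericyte and smooth muscle markers had mean levels of 6.85 to 7.20 in WT ECs. The part of these groups was not tested. Per kilobase of transcript, *Zfp36* led in ECs with 962 CPM per kb, followed by *Zfp36l1* (221) and *Btg2* (147), and *Zc3h12c* was the lowest with 2.96. *Zfp36* led in FBs as well, with 710 CPM per kb. In WT CMs *Tob2* led with 11.8 CPM per kb, and *Zfp36* followed with 10.8. *Noct* was the one gene with every WT CM sample (4.42 to 5.21 log2 CPM) above every WT FB sample (2.03 to 3.30).

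The first comparison asked how the regulators differed between *Gadlor*-KO and WT ECs. All 10 were lower in *Gadlor*-KO ECs, and in all 10 the 4 *Gadlor*-KO values lay below the 4 WT values. By limma across all genes, called at an adjusted p under 0.05 and a fold change above 1.5, 9 of the 10 were lower and 0 higher. Of all genes tested in ECs 5.31% were called lower and 2.08% higher, 12.6% were lower with groups that did not overlap (26.2% in either direction), and 35.7% had an unadjusted p under 0.05. The median log2 fold change of the 10 genes was -1.03, against 0.03 over all genes. Since the list was drawn up with these data known, the count describes the listed genes and is no independent evidence of their direction. In bulk samples, fewer cells of a type and less RNA per cell cannot be told apart.

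**Figure D1:**
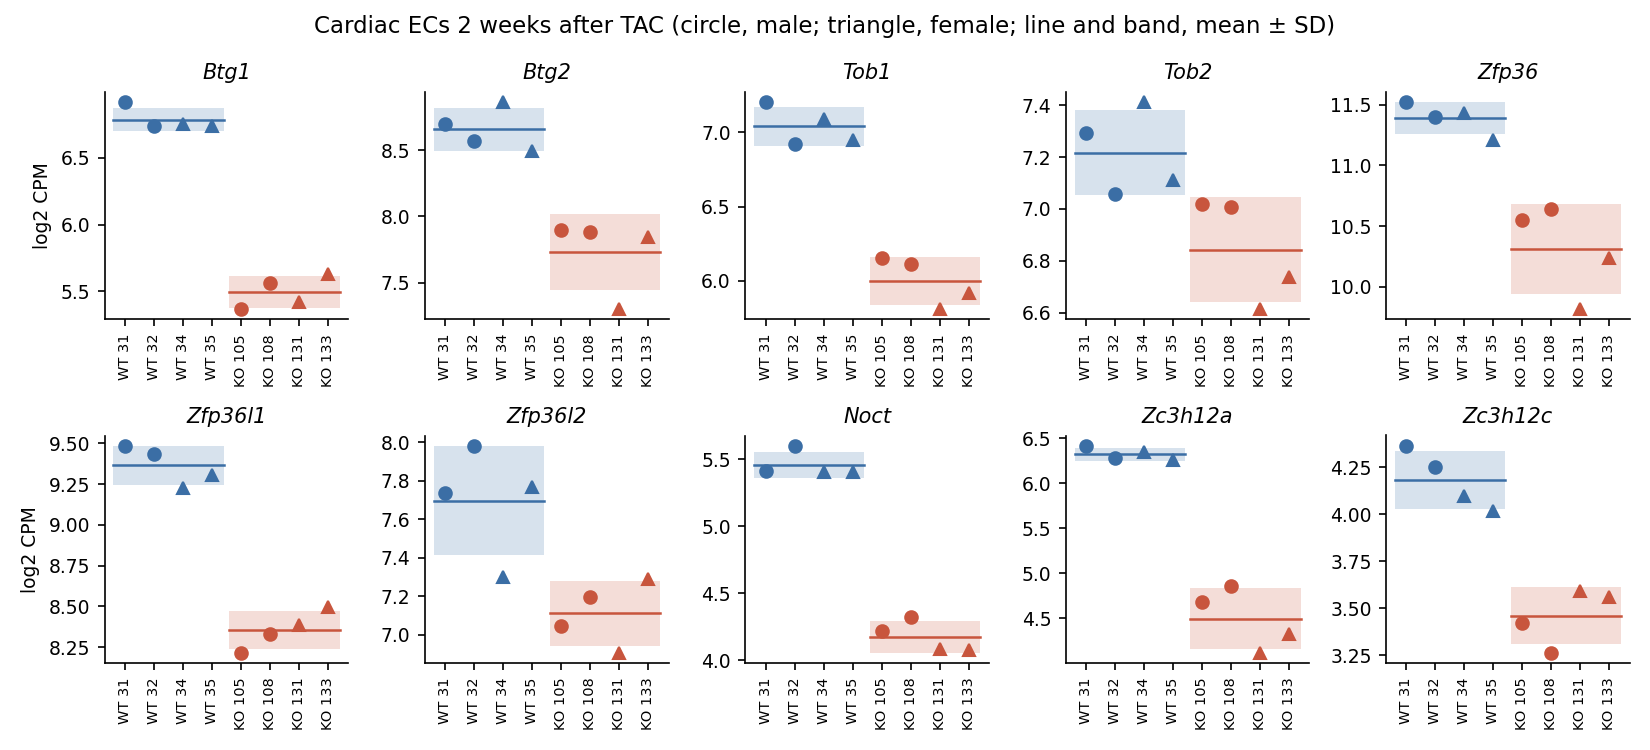
Level of each of the 10 regulators in log2 CPM (vertical axis, a separate range per gene) in the 4 WT (blue) and 4 *Gadlor*-KO (red) EC samples, with the mean and SD of each genotype as line and band. Circles are male and triangles female samples by their Y-linked genes. In every gene the *Gadlor*-KO samples lie below the WT samples, with the narrowest gaps in *Tob2* and *Zfp36l2*.

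The largest fall was that of *Zc3h12a*, the RNase of cytokine messages. Its levels were 6.41, 6.28, 6.34 and 6.25 log2 CPM in the WT samples WT-31, WT-32, WT-34 and WT-35. In the *Gadlor*-KO samples KO-105, KO-108, KO-131 and KO-133 they were 4.68, 4.86, 4.12 and 4.33. The lowest values were those of the 2 female *Gadlor*-KO samples, and the WT samples lay close together. The mean fell from 6.32 ± 0.07 to 4.50 ± 0.33 (SD, n = 4 per genotype), a log2 fold change of -1.82 (SE 0.14, adjusted p from limma = 4.99e-05), or 3.54 times lower. This was among the lowest 0.660% of log2 fold changes in ECs. *Zc3h12c*, its relative and the least abundant gene of the list, ranged over 4.02 to 4.36 log2 CPM in WT ECs and 3.27 to 3.59 in KO, a fall of 0.72 (SE 0.10).

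*Noct* fell in parallel with small spread. The WT samples had 5.41, 5.60, 5.40 and 5.41 log2 CPM in the same order, and the *Gadlor*-KO samples 4.22, 4.32, 4.08 and 4.08. The log2 fold change was -1.28 (SE 0.08, adjusted p from limma = 6.91e-06), or 2.43 times lower. The gap between the lowest WT and the highest *Gadlor*-KO sample was several times the spread within either genotype.

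Among the BTG and TOB genes, *Btg1* had the largest fall, with little spread. Its WT levels were 6.92, 6.74, 6.75 and 6.74 log2 CPM, and its *Gadlor*-KO levels 5.37, 5.57, 5.42 and 5.63. The log2 fold change was -1.29 (SE 0.07, adjusted p from limma = 6.36e-06), or 2.45 times lower. *Btg1* and *Btg2* are antiproliferative genes of the same family, and both lay among the lowest 3.51% of changes.

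*Btg2*, the more abundant of the pair, had 8.70, 8.57, 8.86 and 8.50 log2 CPM in WT and 7.89, 7.89, 7.30 and 7.84 in *Gadlor*-KO ECs. Its fall of 0.93 (SE 0.14, adjusted p from limma = 0.00161) was spread over all *Gadlor*-KO samples, with KO-131 lowest. *Tob1*, a TOB adaptor of the deadenylase, ranged from 6.92 to 7.20 in WT and from 5.81 to 6.16 without *Gadlor*, a fall of 1.04 (SE 0.09). *Tob2*, the other TOB gene, was the one member that was not called. WT samples spanned 7.06 to 7.41 log2 CPM and *Gadlor*-KO samples 6.61 to 7.02, with a log2 fold change of -0.37 (SE 0.11, adjusted p from limma = 0.0379) that missed the fold threshold. The lowest WT and the highest *Gadlor*-KO values of *Tob2* nearly touched.

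The 3 ZFP36 genes started from high levels. *Zfp36* had 11.52, 11.40, 11.43 and 11.21 log2 CPM in WT, and 10.55, 10.64, 9.82 and 10.24 in *Gadlor*-KO ECs. It stood at the 99.9th percentile of WT EC genes and fell by 1.08 (SE 0.17, adjusted p from limma = 0.00188), or 2.11 times. The female samples KO-131 and KO-133 were the lowest, as for *Zc3h12a*. *Zfp36l1*, which has roles in vascular development in the mouse, spanned 9.23 to 9.49 in WT ECs and 8.22 to 8.50 in KO, a fall of 1.01 (SE 0.09), and here the male KO-105 was lowest.

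*Zfp36l2* fell least of the family. Its levels were 7.74, 7.98, 7.30 and 7.77 log2 CPM in WT and 7.05, 7.20, 6.91 and 7.29 in *Gadlor*-KO ECs. WT-34 was almost level with KO-133, so the groups were separated by a narrow margin only. The log2 fold change was -0.59 (SE 0.14, adjusted p from limma = 0.0162), just past the fold threshold, and the call was lost in 11 of 20 alternatives. The call of *Zc3h12c* was lost in 2 of 20, and the calls of the other 7 genes were kept in all 20.

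The fall was present in both sexes. Read from Y-linked genes, each genotype had 2 male and 2 female EC samples. Among males 9 of the 10 genes were called lower and among females 7. The calls lost in females were *Zfp36l2* (log2 fold change -0.44) and *Zc3h12c* (-0.48). Of all genes tested 4.62% were called lower among males and 5.87% among females. These splits, of 2 against 2 samples, were chosen after the data were seen, and whether the fall differed between the sexes was not tested. *Tob2* had a log2 fold change of -0.16 in males and -0.58 in females.

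Other measures were read beside the regulators in ECs. Of 16 immediate early genes, such as *Egr1*, *Junb* and *Atf3*, 15 had a negative log2 fold change. Calls were 12 lower and 0 higher, where 5.31% of all genes were called lower. The median log2 fold change of these genes was -1.13. Their mean levels were 7.48 to 8.11 log2 CPM in *Gadlor*-KO against 8.91 to 9.17 in WT. Of 7 heat shock genes all 7 had a negative log2 fold change and 6 were called lower. The part of these groups in the fall of the decay regulators was not tested. Macrophage markers, 10 of 10 with a negative log2 fold change and 0 called, had mean levels of 2.09 and 2.15 log2 CPM in the female *Gadlor*-KO samples and 3.82 to 4.68 in the other 6 samples. Without the female *Gadlor*-KO samples, a split chosen after the data were seen, 8 of the 10 regulators were called lower. At that setting 4.74% of all genes were called lower, and *Zc3h12a* fell by 1.55. The part of macrophages in the fall of the regulators was not tested. Of 5 erythroid markers 5 were called lower. The mitochondrially encoded share of CPM was 12.7% and 20.4% in the male *Gadlor*-KO samples, against 5.25% and 5.68% in WT males. In females it was 8.03% and 8.18% in *Gadlor*-KO, against 8.59% and 7.51% in WT. Their part was not tested.

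Promoters of the regulators were read because 9 of them were called lower together. RefSeq promoters (build GRCm38.p6) were matched for 9 of the 10 genes, all but *Zfp36l2*. The first listed promoter of each gene was counted, as for all genes. In the 250 bases before the start, and on both strands, the cAMP response element TGACGTCA was present in 1 of the 9, against 1.62% of 27025 promoters. Its 5-base part TGACG, which the full element contains on each strand, was present in 3 of the 9, against 17.9%. The TATA box TATAAA was present in 3 of the 9 (13.0% of all), the CCAAT box in 5 (34.5%), the AP-1 site TGANTCA in 1 (6.87%), the CArG box in 1 (1.40%) and the NF-kappaB site in 0 (4.78%). *Zc3h12c* had a second listed promoter, outside these counts, with a TGACG and a CCAAT box. The 250 upstream bases of 4 genes that fell in ECs are printed 5′ to 3′ on the strand of the gene, with the TGACG element on either strand, the TATA box and the AP-1 site in capitals. They show the start of *Btg1* at chromosome 10 (96616751 to 96617000, plus strand), of *Btg2* at chromosome 1 (134079156 to 134079405, minus strand), of *Tob1* at chromosome 11 (94211204 to 94211453, plus strand) and of *Zfp36l1* at chromosome 12 (80113014 to 80113263, minus strand).
Btg1: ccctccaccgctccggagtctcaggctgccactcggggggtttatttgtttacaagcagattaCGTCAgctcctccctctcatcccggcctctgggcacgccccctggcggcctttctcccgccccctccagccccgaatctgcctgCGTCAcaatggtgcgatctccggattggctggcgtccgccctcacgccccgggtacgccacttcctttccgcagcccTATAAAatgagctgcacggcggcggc
Btg2: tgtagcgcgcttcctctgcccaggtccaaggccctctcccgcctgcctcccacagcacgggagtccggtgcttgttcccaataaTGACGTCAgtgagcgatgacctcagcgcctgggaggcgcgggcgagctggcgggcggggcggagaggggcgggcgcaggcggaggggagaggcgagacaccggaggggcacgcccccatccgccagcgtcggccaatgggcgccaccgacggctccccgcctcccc
Tob1: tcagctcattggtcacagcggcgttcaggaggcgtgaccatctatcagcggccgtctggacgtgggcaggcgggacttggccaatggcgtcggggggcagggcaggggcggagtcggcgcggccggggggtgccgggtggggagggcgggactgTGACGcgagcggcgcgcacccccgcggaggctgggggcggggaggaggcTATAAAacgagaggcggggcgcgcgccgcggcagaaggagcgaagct
Zfp36l1: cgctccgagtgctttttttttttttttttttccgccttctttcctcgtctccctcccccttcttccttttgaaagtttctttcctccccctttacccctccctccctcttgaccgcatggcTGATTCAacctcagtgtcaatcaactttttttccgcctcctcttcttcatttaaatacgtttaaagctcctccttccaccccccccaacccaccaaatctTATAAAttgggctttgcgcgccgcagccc
The full cAMP response element stood in *Btg2*, where all 8 of its bases are in capitals. In *Zfp36l1* a CCAAT box on the opposite strand overlapped the TATA box by its last base. The windows were rich in G and C in *Btg1* (65.2%), *Btg2* (73.2%) and *Tob1* (73.6%), against a median of 52.0% of all promoters, and less so in *Zfp36l1* (48.4%). A match says nothing of whether a factor was bound in these cells.

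Few genes of the machinery with which the regulators work were called in ECs. Of 82 other genes of mRNA decay 77 were measured, and 2 were called higher and 1 lower, with a median log2 fold change of 0.07. Of all genes tested in ECs 7.39% were called in either direction. None of the 12 CCR4-NOT genes was called, and the most changed of them were *Cnot10* (log2 fold change -0.29) and the deadenylase gene *Cnot8* (0.26). The called genes were *Lsm7*, of the LSM ring that binds shortened tails, with 0.77, *Exosc9*, an exosome subunit, with 0.65, and the BTG relative *Btg3* with -0.70. *Lsm7* and *Btg3* are low genes, near 1 CPM, and with a pseudocount of 1 CPM 0 of the 77 were called.

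The rest of the machinery gave values without calls. Of all 77 genes 54 had a positive and 23 a negative log2 fold change. By limma 20 were higher and 9 lower at an unadjusted p under 0.05, where 35.7% of all genes had such a p. Of 15 exosome and Dis3 genes 13 were positive, with mean levels of 2.74 to 2.81 log2 CPM in *Gadlor*-KO and 2.54 to 2.61 in WT ECs. The poly(A)-binding protein gene *Pabpc1* had a log2 fold change of -0.43 with groups that did not overlap. *Rc3h1* (roquin-1), which reads stem-loops as regnase-1 does, had -0.47, and the antiviral RNA-binding gene *Zc3hav1* had -0.42. Of the p38-MK2 pathway, which phosphorylates ZFP36 proteins and blocks their action, 0 of 5 genes were called, with the phosphatase gene *Ppp2ca* at 0.27. Without a fold threshold 19 of the 77 genes passed, 11 higher and 8 lower, where 21.3% of all genes passed.

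Known targets of the regulators were lower as well. Of 19 genes with AU-rich or stem-loop elements read by ZFP36 or regnase proteins, 13 were measured in ECs, and 10 were called lower and 0 higher, with a median log2 fold change of -1.37. The chemokine gene *Cxcl1* fell from 6.10 ± 0.13 to 4.31 ± 0.27 log2 CPM (SD, n = 4 per genotype). *Nfkbiz*, an NF-kappaB cofactor and a regnase-1 target, fell by 1.22, and the growth factor gene *Vegfa* fell by 0.78. Many of these targets are themselves immediate early or inflammatory genes.

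**Figure D2:**
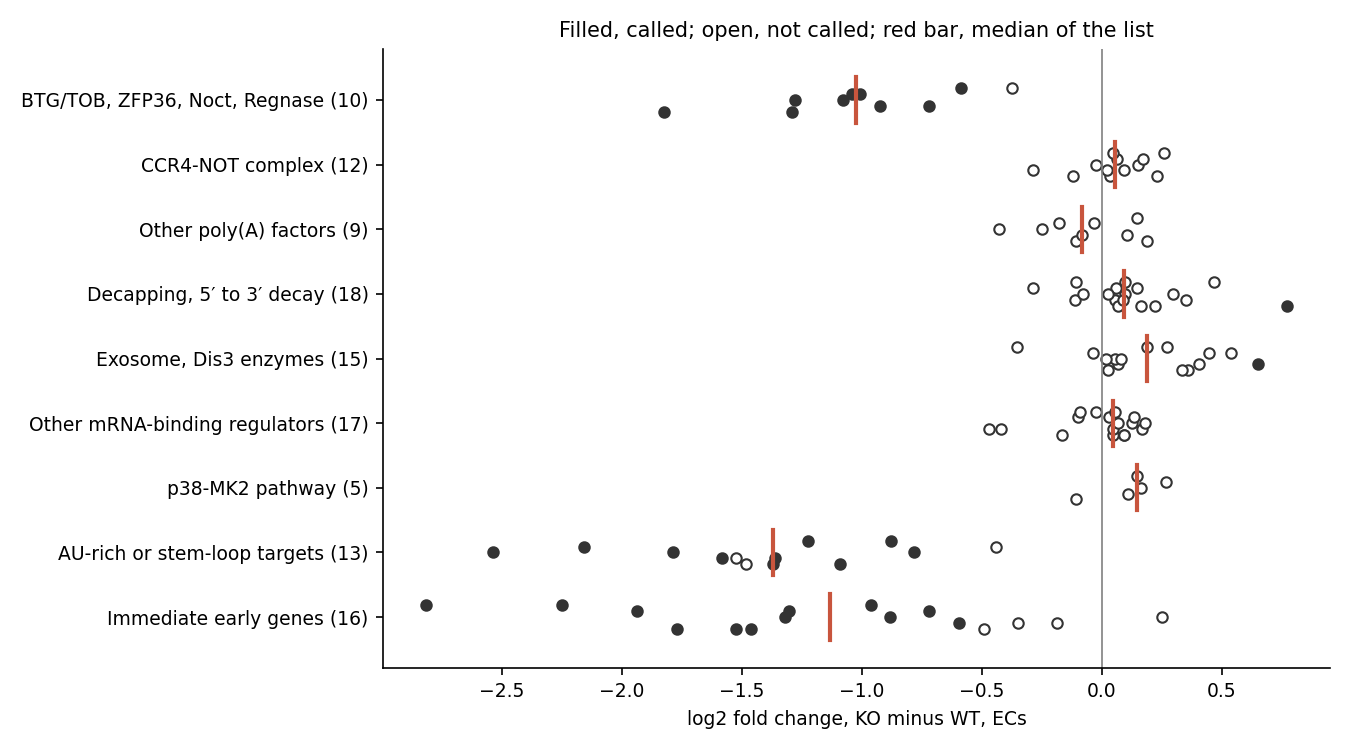
Log2 fold change of *Gadlor*-KO against WT ECs (horizontal axis) for the 10 regulators and for 8 other gene lists, with the number measured in parentheses. Points are genes, filled where called, and the red bar is the median of the list. The regulators (median -1.03), their known targets (-1.37) and the immediate early genes (-1.13) lie to the left, and the 6 lists of decay machinery and its kinases lie near 0.

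By the mean standardized level of the 10 genes over the 8 EC samples, the most similar of 6752 other genes included *Zfand5*, a zinc finger protein gene, *Pde12*, a nuclease that trims poly(A) tails of mitochondrial RNA, and the ubiquitin ligase gene *Topors*. Their Pearson r was 0.996 to 0.999, given as a description since the 8 samples share the genotype difference. These 3 were lower in *Gadlor*-KO ECs by 0.89 to 1.78 on the log2 scale.

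The second comparison asked the same of cardiac FBs, where no change of the regulators was detected. By limma 0 of the 10 were called in either direction, 0 had an unadjusted p under 0.05, and in 0 of the 10 did the genotypes separate. Of all genes tested in FBs 0.00737% were called higher and 0% lower, 14.8% had an unadjusted p under 0.05, and 21.3% had groups that did not overlap (9.09% lower). The median log2 fold change was 0.36, with 7 genes positive and 3 negative, and adjusted p-values ran from 0.347 to 0.951. The standard errors of 0.23 to 0.42 were larger than in ECs (0.07 to 0.17), so changes of the size seen in ECs were less well resolved.

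The FB samples varied together within each genotype. *Zfp36* had 10.49, 11.33 and 11.03 log2 CPM in WT-260, WT-277 and WT-283, and 11.43, 10.65 and 10.52 in KO-240, KO-241 and KO-242. *Btg2* had 6.80, 8.39 and 7.40 in WT and 8.43, 7.81 and 7.66 in *Gadlor*-KO FBs. For all 10 genes WT-260 was the lowest of the WT samples, and for 9 of the 10 KO-240 was the highest of the *Gadlor*-KO samples. Endothelial markers had mean levels of 6.04 to 6.67 log2 CPM in *Gadlor*-KO FBs, 5.30 in WT-260, and 0.61 and 2.51 in the other WT FBs. Cardiomyocyte markers had 4.09 to 4.74, 5.31, and 0.61 and 1.77 in the same order. Pericyte and smooth muscle markers had 4.43 to 4.82 in *Gadlor*-KO and 2.25 to 4.13 in WT FBs. Heat shock genes had a positive log2 fold change in 7 of 7, and fibroblast and macrophage markers a negative one in 9 of 10 each. The part of these groups in the regulator values was not tested. By Y-linked genes WT-283, KO-241 and KO-242 were female, and with the Y-linked level as a covariate 0 of the 10 genes were called.

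The largest differences in FBs went in both directions. *Noct* had 2.03, 3.30 and 2.08 log2 CPM in WT and 3.24, 3.71 and 2.94 in *Gadlor*-KO FBs, a log2 fold change of 0.83 (SE 0.38, adjusted p from limma = 0.375). *Tob1* had a log2 fold change of 0.64 (SE 0.30), with WT levels of 4.27 to 5.25 and *Gadlor*-KO levels of 5.04 to 5.82. *Zfp36l2* had 6.80, 7.42 and 7.81 in WT and 6.93, 6.66 and 6.51 in *Gadlor*-KO FBs, a log2 fold change of -0.64 (SE 0.28, adjusted p from limma = 0.347). Without WT-260, which was its lowest WT sample, *Zfp36l2* was called lower (-0.91, adjusted p from limma = 0.0400; over all alternatives the adjusted p ran from 0.0400 to 0.720). At that setting 9.40% of all genes were called, so 1 of 10 regulators was near the background.

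**Figure D3:**
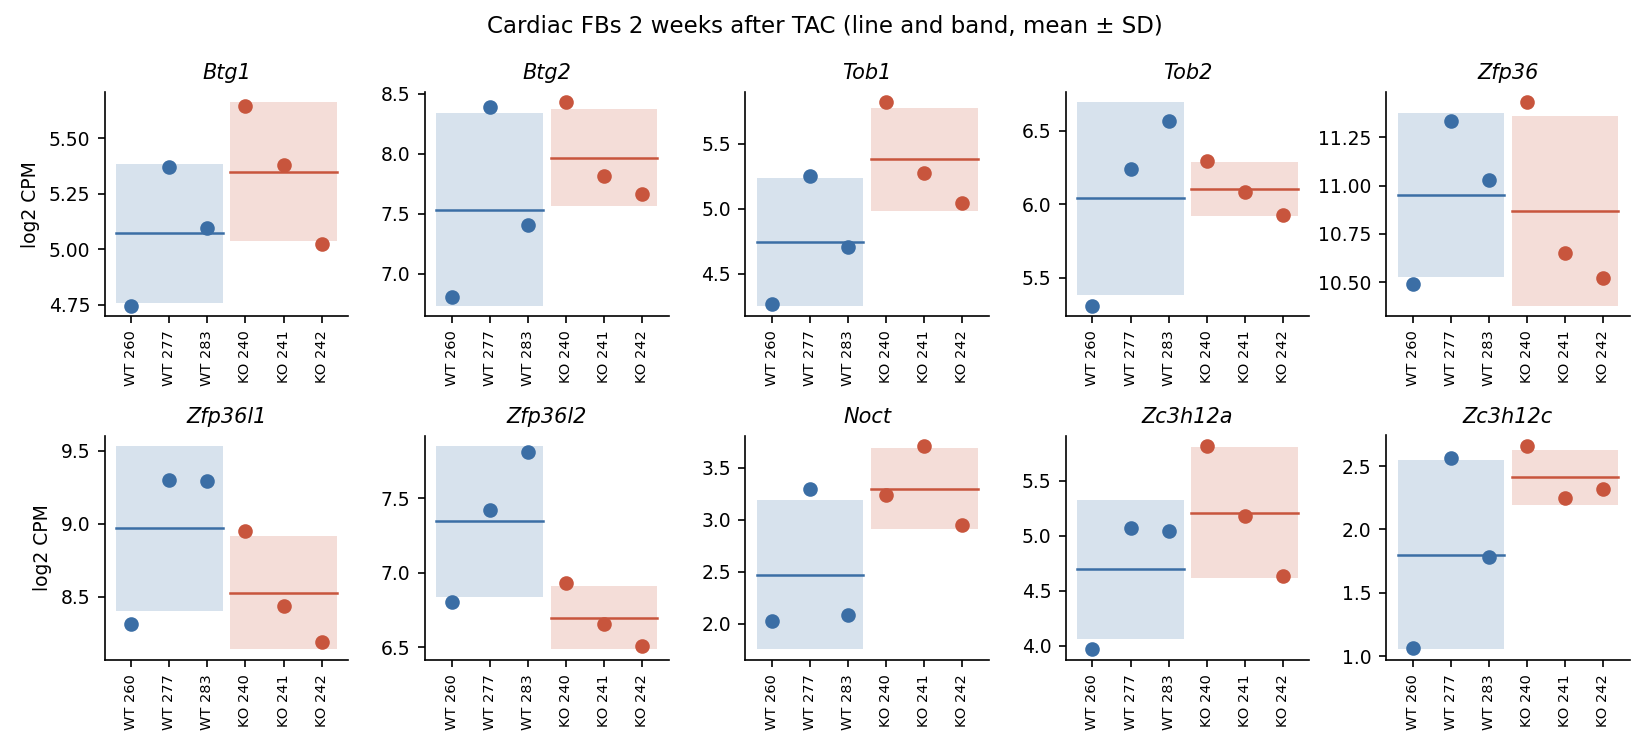
Level of each regulator in log2 CPM (vertical axis, a separate range per gene) in the 3 WT (blue) and 3 *Gadlor*-KO (red) FB samples, with the mean and SD of each genotype as line and band. The genotypes overlap in all 10 genes, and WT-260 is the lowest WT sample throughout.

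*Zfp36l1* (-0.44) and *Zfp36* (-0.08) were the other genes with a negative log2 fold change in FBs. *Btg1*, *Btg2*, *Zc3h12a* and *Zc3h12c* had 0.28, 0.43, 0.51 and 0.61, each with a standard error of 0.23 to 0.42. With 1 library left out these values ran from 0.11 to 0.44, 0.07 to 0.86, 0.15 to 0.80 and 0.24 to 0.99, each lowest without WT-260. Those of *Tob1* ran from 0.40 to 0.89, of *Noct* from 0.61 to 1.24, of *Zfp36l1* from -0.77 to -0.28 and of *Zfp36l2* from -0.91 to -0.41. *Tob2* had 0.06, and its sign and that of *Zfp36* turned under some alternatives. Of the 76 other decay genes measured in FBs 0 were called. By limma 5 of them had an unadjusted p under 0.05, where 14.8% of all genes had such a p. All 5 had positive values, among them the exosome cofactor *Wdr61* (0.89) and the deadenylase *Pan2* (0.67). Of 15 known targets 0 were called, with a median log2 fold change of -0.21. The genes most similar to the regulators over the 6 FB samples were *Clip1*, *Dync1h1*, *Marchf6*, *Map4k5* and *Dst* (Pearson r 0.990 to 0.996, a description over 5959 genes), with log2 fold changes of 0.07 to 0.12.

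The third comparison was between WT CMs and the samples labelled *Gadlor*-KO CMs, whose other-cell markers are given above. Of the 10 regulators 3 were called higher (*Zfp36l2*, *Zfp36l1* and *Btg1*) and 1 lower (*Noct*), and in 7 the groups did not overlap, 5 higher and 2 lower. Of all genes tested in CMs 21.3% were called higher and 19.6% lower (40.9% in either direction). Groups did not overlap in 59.5% of all genes (31.1% higher and 28.4% lower). By limma 5 of the 10 regulators and 50% of all genes had an unadjusted p under 0.05. The counts over the 10 genes were thus near the background. The median log2 fold change was 0.82 over the 10 genes and 0.15 over all genes.

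The largest change was in *Zfp36l2*, a ZFP36 gene. Its levels were 2.39, 3.35 and 2.28 log2 CPM in WT 1, 2 and 6, and 6.33, 6.10 and 5.61 in *Gadlor*-KO 1, 2 and 3. All *Gadlor*-KO samples lay far above the WT range. The log2 fold change was 3.34 (SE 0.39, adjusted p from limma = 0.00485), or 10.1 times higher, and it was called in all 16 alternatives. *Zfp36l1*, its close relative, had 4.86, 4.89 and 3.22 in WT and 6.33, 6.25 and 6.24 in *Gadlor*-KO samples, a log2 fold change of 1.95 (SE 0.49, adjusted p from limma = 0.0195). Its WT spread came from WT 6, and without KO 1 or KO 2 the call was lost (adjusted p from limma = 0.0609 and 0.0635, over a range of 0.00528 to 0.0635).

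*Btg1*, the antiproliferative gene, went the same way at lower levels. Its WT values were 2.78, 2.82 and 1.99 log2 CPM and its *Gadlor*-KO values 3.93, 3.70 and 3.71, a log2 fold change of 1.25 (SE 0.33, adjusted p from limma = 0.0228). The call was kept in 12 of 16 alternatives, and it was lost without any 1 of the *Gadlor*-KO samples (adjusted p from limma 0.0630 to 0.0759). *Noct*, in contrast, fell: it had 5.21, 4.46 and 4.42 in WT and 1.95, 2.28 and 3.35 in *Gadlor*-KO samples, with KO 3 the highest of these. Its log2 fold change was -2.17 (SE 0.45, adjusted p from limma = 0.0102), and it was called in all 16 alternatives. Cardiomyocyte markers had mean levels of 6.22, 5.69 and 8.93 log2 CPM in KO 1, KO 2 and KO 3. KO 3 was highest in both, while KO 1 was above KO 2 in the markers and below it in *Noct*. The part of these markers in the *Noct* values was not tested.

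**Figure D4:**
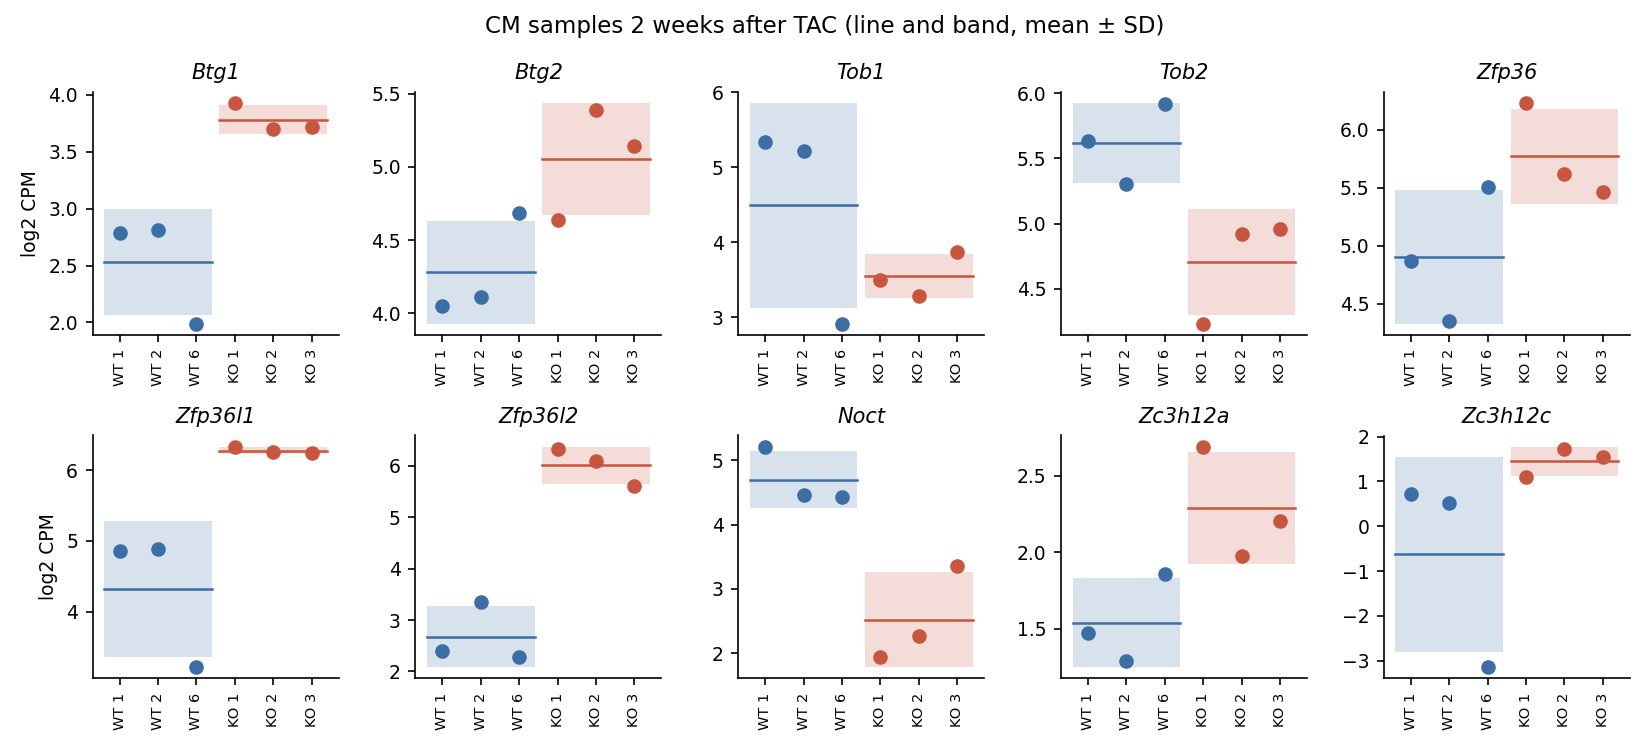
Level of each regulator in log2 CPM (vertical axis, a separate range per gene) in the 3 WT (blue) samples and the 3 samples labelled *Gadlor*-KO CMs (red), with the mean and SD of each genotype as line and band. *Zfp36l2*, *Zfp36l1* and *Btg1* are higher and *Noct* lower in the *Gadlor*-KO samples, and WT 6 departs from the other WT samples in *Tob1*, *Zfp36l1* and *Zc3h12c*.

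The other 6 genes were not called in CMs. *Tob2* had 5.63, 5.30 and 5.92 log2 CPM in WT and 4.23, 4.92 and 4.96 in *Gadlor*-KO samples, without overlap (-0.91 on the log2 scale, with an SE of 0.34 and an adjusted p from limma of 0.0670). *Tob1* had 5.34 and 5.22 in WT 1 and WT 2, 2.91 in WT 6, with *Gadlor*-KO samples at 3.28 to 3.86, and without WT 6 it was called lower (-1.73, adjusted p from limma = 0.00513, over a range of 0.00123 to 0.833). *Zfp36* had 4.87, 4.35 and 5.50 in WT and 6.23, 5.62 and 5.46 in *Gadlor*-KO samples. The same gene was at 9.82 log2 CPM or more in every EC and FB sample, and at 6.23 or less in all 6 CM samples. *Btg2* (0.77), *Zc3h12a* (0.75) and *Zc3h12c* (2.08) had positive log2 fold changes that did not pass. *Zc3h12c* in WT 6 rested on about 1 read, and without that sample its log2 fold change was 0.83, with a range of 0.83 to 2.76 over single samples left out. The ranges were 0.61 to 0.98 for *Btg2*, 0.55 to 0.91 for *Zc3h12a*, 0.58 to 1.16 for *Zfp36* and -1.73 to -0.52 for *Tob1*.

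The number of calls in CMs depended on single libraries and on the scaling. Without WT 6, 8 of the 10 genes were called (6 higher, 2 lower), and without KO 1 or without KO 2 the count was 2. Calls over all genes moved the same way, from 40.9% to 54.1% without WT 6, 31.6% without KO 1 and 22.9% without KO 2. The mitochondrially encoded share of CPM was 65.1% to 75.6% in the *Gadlor*-KO samples, against 26.7% to 46.8% in WT CMs. With CPM rescaled to nuclear-encoded genes the median over all genes shifted from 0.15 to 0.89, and 6 regulators were then higher and 1 lower, where 33.8% of all genes were higher and 11.5% lower.

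Of the 75 other decay genes measured in CMs 4 were called higher and 9 lower (20 and 3 with CPM rescaled to nuclear-encoded genes), against 40.9% of all genes called in either direction. Those higher included *Tnks1bp1*, which associates with CCR4-NOT (2.45), *Pabpc1* (1.74) and *Zc3hav1* (2.82). Those lower included *Pabpc4*, another poly(A)-binding protein gene (-2.43), *Wdr61* (-1.89), *Lsm3* (-1.39) and the p38-activated kinase gene *Mapkapk2*, whose product phosphorylates ZFP36 (-2.12). Of the 19 known targets 5 were measured in CMs: *Fos* (3.45), *Nfkbiz* (3.95) and *Myc* (1.90) were called higher and *Vegfa* lower (-2.99). Of 14 immediate early genes 8 were called higher and 0 lower. The part of other cell types and of these groups in the CM values was not tested. The genes most similar to the regulators over the 6 CM samples included *Pxk*, *Rac1*, *Abhd2* and *Cpne1* (Pearson r 0.980 to 0.990, a description over 5227 genes).

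**Figure D5:**
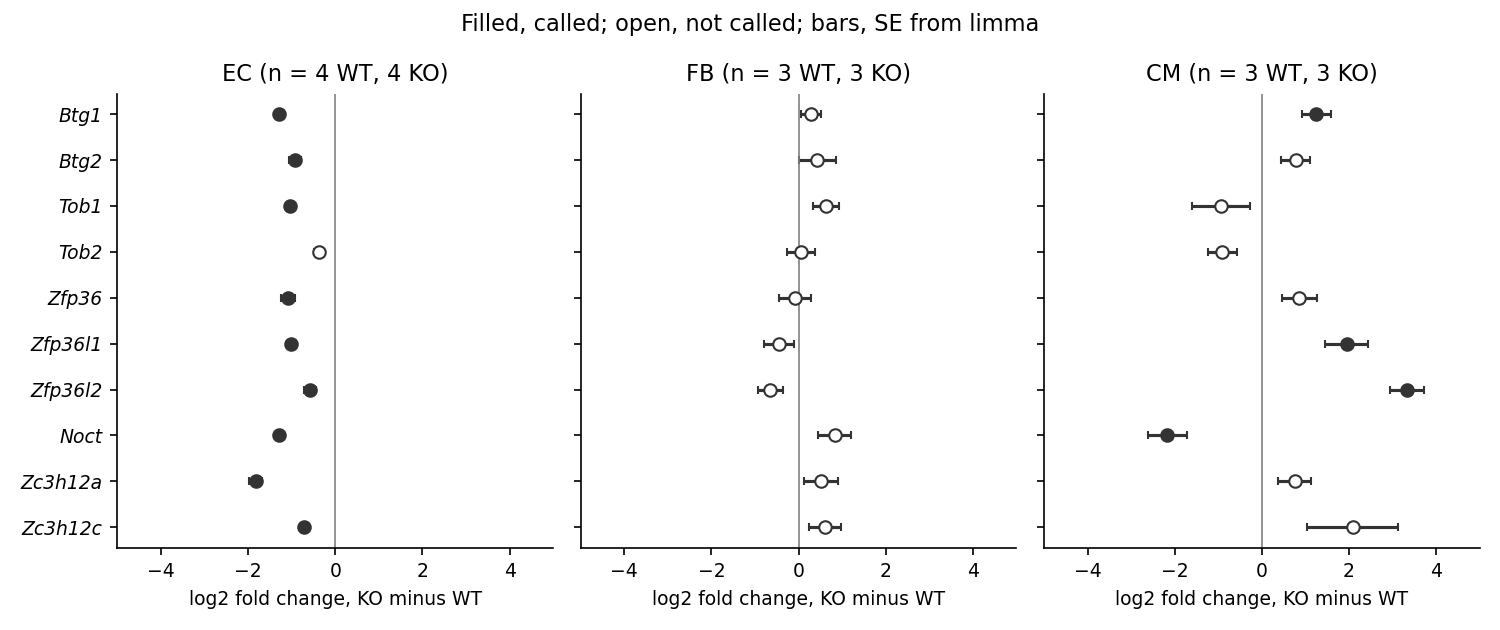
Log2 fold change of *Gadlor*-KO against WT (horizontal axis) for each regulator in ECs, FBs and CMs, with the SE from limma as bars. Filled points are called. In ECs all 10 lie below 0, in FBs none is called, and in CMs *Zfp36l2*, *Zfp36l1* and *Btg1* lie above and *Noct* below 0.

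Set side by side, the same genes had different values in the 3 tables, which hold different samples and were fitted apart. *Zfp36l2* had log2 fold changes of -0.59 in ECs, -0.64 in FBs and 3.34 in CMs. *Btg1* had -1.29, 0.28 and 1.25. *Noct* was called lower in ECs (-1.28) and CMs (-2.17) and had 0.83 in FBs. The difference between cell types was not tested. In *Gadlor*-KO cells the means in ECs were no longer above those in FBs for *Btg2*, *Zfp36*, *Zfp36l1* and *Zc3h12a*.

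All 10 regulators lie outside the deleted segment, on 10 different chromosomes: 10 (*Btg1*), 1 (*Btg2*), 11 (*Tob1*), 15 (*Tob2*), 7 (*Zfp36*), 12 (*Zfp36l1*), 17 (*Zfp36l2*), 3 (*Noct*), 4 (*Zc3h12a*) and 9 (*Zc3h12c*). In GENCODE vM21 (mm10) *Zfp36* spans 28376784 to 28380253 on the minus strand, and *Zc3h12a* 125118423 to 125127840, also on the minus strand. *Tob2*, *Zfp36*, *Zfp36l1*, *Zfp36l2* and *Zc3h12c* each overlap 1 annotated gene on the other strand, and *Noct* overlaps 1 on its own strand. The library kit kept strand, but whether the counting used it is not stated, so reads of these partners may be included.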

How the data were processed

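The 10 genes and all gene lists were chosen with earlier results of these data known. Strand-specific libraries of polyA RNA were sequenced as single-end reads of 50 bases. According to the methods, FastqCleaner trimmed the reads, bowtie2 placed them on mm10, transcripts were annotated with biomaRt, and genotypes were compared with edgeR, while the submitters' processing notes name Bowtie2 and DESeq2. The authors deposited, for each cell type, library-size-normalized log2 CPM per Ensembl transcript, normalized apart from the other cell types. The deposited tables also hold the authors' own fold changes, likelihood ratios and p-values, which were not used. 0 sample columns were left out. Rows without a symbol (0.440% of the EC, 0.419% of the FB and 0.414% of the CM rows) were left out.

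Low values fell on whole reads (100% within 0.1 read), from which effective library sizes were estimated. Per-kilobase levels used transcript lengths of GENCODE vM21, matched by transcript identifier without version. Fold changes are on the deposited log2 CPM scale, which understates changes of very low genes.

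*Gadlor*-KO was compared with WT within each table by limma 3.58.1 (R 4.3.3, trend and robust empirical Bayes), with Benjamini-Hochberg adjustment over all genes of the table. A call needed a fold change over 1.5 and an adjusted p below 0.05. The test was tried on simulated data with known changes. All 10 genes are named in every table. From each other list and table, up to 3 called genes with the smallest adjusted p in each direction are named, or up to 2 with the smallest p where none was called. The most similar genes are the 5 with the highest Pearson r and a mean of at least 10 CPM, predicted genes left out, and some of them are not reported here. Alternatives covered the thresholds, a low-value filter of 1 CPM, pseudocounts of 1 and 5 CPM, the mean over transcripts, 2 other scalings, the variance model, a Y-linked covariate, each sample left out, and a replicate block in CMs. Splits of the EC samples by sex, and leaving out both female *Gadlor*-KO ECs, were added after seeing the data. Motif searches and figures used Python 3.11.15.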

Additional observations from a re-analysis of the deposited data

Results flagged for a closer look

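In the 20 groups of 4 EC samples, 3 values lay far from the other 3 of their group by Dixon's criterion, which chance meets in about 1 in 20 groups. *Btg1* in WT-31 was 6.92 log2 CPM, above the other WT values of 6.74 to 6.75. *Btg2* in KO-131 was 7.30 log2 CPM, below 7.84 to 7.89. *Noct* in WT-32 was 5.60 log2 CPM, above 5.40 to 5.41. All 3 genes kept their calls in ECs without these samples.

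In 5 genes every *Gadlor*-KO sample was below every WT sample in ECs and above every WT sample in CMs. This pattern was seen in 4.60% of the 12437 genes measured in both cell types, and 31.1% of all CM genes were higher without overlap. The log2 fold changes in ECs and CMs were -1.29 and 1.25 for *Btg1*, -1.01 and 1.95 for *Zfp36l1*, -0.59 and 3.34 for *Zfp36l2*, -1.82 and 0.75 for *Zc3h12a*, and -0.72 and 2.08 for *Zc3h12c*. The difference between the cell types was not tested, the tables were normalized apart, and the rises of *Zc3h12a* and *Zc3h12c* in CMs were not called. The samples labelled *Gadlor*-KO CMs had lower cardiomyocyte and higher endothelial, fibroblast and macrophage markers, and the part of these in the CM values was not tested.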

How the results depend on the processing

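In ECs the count of regulators called lower was 7 to 10 under all alternatives, and 8 to 9 with 1 sample left out. Over all alternatives 2.30% to 11.3% of all genes were called lower. Over the 10 genes and 20 alternatives in ECs, direction and call were kept 186 times, the call was lost 13 times and gained 1 time, and 0 reversed. In FBs the count of 0 became 1 without WT-260. In CMs the count of 4 became 7 with CPM rescaled to nuclear-encoded genes (6 higher, 1 lower) and ran from 2 to 8 with 1 sample left out, highest without WT 6 and lowest without KO 1 or KO 2.

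Of the other decay genes in ECs, 3 were called. The count was 19 with no fold threshold, 0 with a pseudocount of 1 or 5 CPM, 5 with the mean over transcripts, 1 in females only, and 0 to 2 with 1 sample left out, 0 without KO-133. In CMs the count of 13 (4 higher, 9 lower) became 23 (20 higher, 3 lower) with CPM rescaled to nuclear-encoded genes and 7 with the Y-linked covariate, and ran from 5 to 20 with 1 sample left out, lowest without KO 2 and highest without WT 6. The causes were not tested.

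In FBs the sign turned for *Tob2* with centring on the median gene (-0.00114), with the Y-linked covariate (-0.000885), and without WT-260 (-0.30) or KO-240 (-0.0340). It turned for *Zfp36* with nuclear rescaling (0.0536), with the Y-linked covariate (0.16), and without WT-277 (0.11), KO-241 (0.0259) or KO-242 (0.0916).

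CM samples of both genotypes share the numbers 1 and 2, which do not mark shared animals. Deviations from the genotype means correlated by 0.05 (number 1) and 0.08 (number 2), so the numbers were not taken to pair samples. With the number as a replicate block, 7 regulators (5 higher, 2 lower) and 20 other decay genes were called, as were 51.8% of all genes. WT 6 and KO 3 share their number with no other sample, so the genotype difference in this fit rests on WT 1, WT 2, KO 1 and KO 2.

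Depth limits *Zc3h12c* in CMs, at 1 to 53 reads per sample.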
